A study of Homo sapiens with 9 samples.

Results

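LRRC32 encodes GARP, a surface protein that holds latent TGF-beta on the cell, and it is described here with 9 genes of the TGF-beta pathway in a lymphoma line depleted of LSD1. The 10 genes were taken by symbol from a count table of 26816 genes, and all of them passed the filter on low counts, as did 15725 genes in the table. LRRC32 was chosen by its own counts: earlier results of these data had it far lower with each LSD1 shRNA than in control cells. Its differences from control are therefore given as a description with no test, and only the difference between the shRNAs, which did not choose it, is tested for it. The other genes, TGFB1, TGFBR1, TGFBR2, SMAD2, SMAD3, SMAD4, SMAD7, SKI and SKIL, were listed by name as its pathway.

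The cells were OCI-Ly1, an established line from a human diffuse large B-cell lymphoma, grown in IMDM with serum. All of them carried a pLKO1 shRNA vector and had been selected with puromycin, the control cells included. Control cells held a scrambled shRNA (shSCR), and the others held sh68 or sh72, which target KDM1A, the gene of the histone demethylase LSD1. Each shRNA had 3 biological replicates, 9 libraries of polyadenylated RNA in all. The time from infection to harvest is not given in the sources used here.

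TGF-beta is secreted in a latent form, folded inside its own propeptide. GARP tethers that latent complex to the surface of regulatory T cells, platelets and activated B cells, and integrins then free the active ligand. Free TGF-beta binds the type II receptor TGFBR2, which activates the type I receptor TGFBR1, and TGFBR1 phosphorylates SMAD2 and SMAD3. These enter the nucleus with SMAD4, while SMAD7, SKI and SKIL hold the signal back. In B cells the pathway is known for restraining growth and for switching antibody class towards IgA.

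The libraries held between 29506767 and 35270849 counted reads, and values per library are given as CPM, a library's reads of a gene scaled to a common depth with TMM factors. KDM1A RNA was left at 20.2% of its control level with sh68 and 17.2% with sh72. All 7 B-cell markers of a list exceeded 1 CPM, and their summed level was 4249.1 to 4391.4 CPM in shSCR, 4236.1 to 4362.6 in sh68 and 2690.0 to 2867.6 in sh72. The sh72 libraries thus held less RNA of these markers, and the part of that difference in the results for sh72 was not tested. Since these are bulk samples, fewer cells that express a gene and less of its RNA per cell cannot be told apart. Of 5 T-cell markers in the table none averaged 1 CPM over the 9 libraries, and their summed level was 1.34 to 1.87 CPM with shSCR, 0.614 to 1.11 with sh68 and 0.641 to 1.01 with sh72. CD5, which B cells can also express, averaged 1.44 (shSCR), 0.481 (sh68) and 0.33 CPM (sh72), and CD3D, a chain of the T-cell receptor complex, 0.0543, 0.192 and 0.308 CPM. Their part in the results was not tested. FOXP3, which defines regulatory T cells, the classical site of GARP, had 1.28 CPM in shSCR, 1.07 in sh68 and 0.818 in sh72. IL2RA and IKZF2, which B cells can also express, were higher with both LSD1 shRNAs, at 27.6 (shSCR), 49.9 (sh68) and 31.1 CPM (sh72) for IL2RA and 191, 334 and 269.9 CPM for IKZF2. The summed level of these 3 markers was 215.0 to 227.0 CPM with shSCR, 372 to 393 with sh68 and 298 to 307 with sh72, and its part in the results was not tested.

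LRRC32 RNA was far lower with either shRNA. The gene (ENSG00000137507.11) lies on the minus strand of chromosome 11 (GRCh38.p14, 76657524 to 76670747). With shSCR the libraries held 1164, 930 and 822 of its reads, against 148, 161 and 152 with sh68 and 104, 110 and 124 with sh72. Scaled for depth these were 36.0, 32.2 and 26.2 CPM with shSCR, 4.54, 4.59 and 4.32 with sh68, and 3.03, 3.47 and 4.07 with sh72. Every control library was high and every LSD1 shRNA library low, and the lowest control stood well apart from the highest of the others. The spread was widest among the controls. The means ± SD were 31.5 ± 4.93, 4.48 ± 0.146 and 3.52 ± 0.519 CPM (n = 3 each), so that 14.2% of the control level remained with sh68 and 11.2% with sh72.

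**Figure D1:**
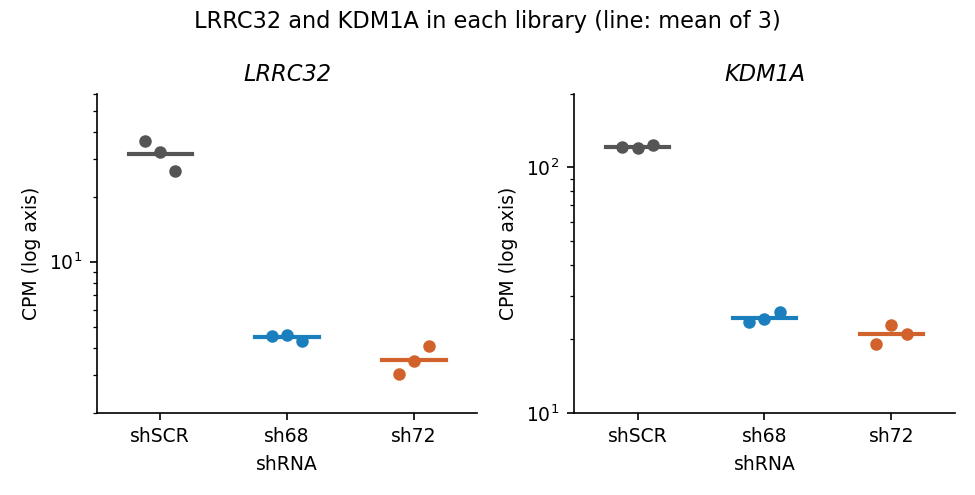
CPM of LRRC32 (left) and KDM1A (right) on log axes in each of the 9 libraries, with points for libraries and lines for the mean of 3. For LRRC32 the shSCR libraries lie between 26.2 and 36.0 CPM and the LSD1 shRNA libraries between 3.03 and 4.59.

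As log2 fold changes against shSCR, LRRC32 had -2.81 ± 0.11 (SE) with sh68, -3.16 ± 0.11 with sh72 and -2.99 ± 0.088 on the mean of both. On the mean it ranked 6 from the lowest of the 15725 genes tested, and 2 from the lowest among the 11573 with an average of at least 1 on the log2 CPM scale. With sh72 alone it was the lowest of those 11573, and with sh68 alone it ranked 13. The fall chose the gene, so these ranks carry no test.

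LRRC32 was slightly lower with sh72 than with sh68. All 3 sh72 libraries lay below all 3 sh68 libraries, as in 31.1% of all genes tested, and sh72 held 78.6% of the sh68 level. In this comparison 29.0% of all genes tested passed as lower. The log2 difference of sh72 minus sh68 was -0.35 ± 0.14 (edgeR adjusted p = 0.041). That call was lost in 8 of 17 alternatives: with library size alone as the scaling (adjusted p = 0.0506), with limma-voom (0.096), and without shSCR replicate 2 (0.0504), sh68 replicate 1 (0.101), 2 (0.0962) or 3 (0.058), or sh72 replicate 1 (0.166) or 2 (0.101). KDM1A itself was also lower with sh72 than with sh68 (log2 difference -0.23 ± 0.061, edgeR adjusted p = 0.00261). Its part in the LRRC32 difference was not tested.

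Some LRRC32 reads could belong to a transcript on the opposite strand, because the strand setting of the counting is not given in the sources used here. In GENCODE 29 an antisense gene, AP001189.1, shares 87 exon bases with LRRC32, which is 2.0% of its exon length. In RefSeq the span of LRRC32-AS1 overlaps 6343 bases of the gene. Neither has a row of its own in the table.

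TGFB1, the ligand that GARP displays, fell with sh72 and did not pass the test with sh68. The gene (ENSG00000105329.9) is on chromosome 19 (41330323 to 41353922, minus strand). Its levels were 78.4, 75.9 and 65.5 CPM with shSCR, 78.0, 73.2 and 70.0 with sh68, and 62.4, 58.2 and 54.6 with sh72. The sh68 libraries overlapped the controls, and the sh72 libraries lay below every other library. With sh72 TGFB1 fell to 79.8% of control (log2 fold change -0.33 ± 0.06, edgeR adjusted p = 8.03e-05). With sh68 the log2 fold change was 0.009 ± 0.059 and did not pass (edgeR adjusted p = 0.91). On the mean of both shRNAs it was -0.16 ± 0.052 (edgeR adjusted p = 0.0126), a call that ended without shSCR replicate 1 (adjusted p = 0.215) or 2 (0.109) or sh68 replicate 3 (0.0534). Exons of TGFB1 share 215 bases, 6.6% of its exon length, with HNRNPUL1 on the opposite strand, so some of its reads are uncertain.

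Both receptor genes rose with sh68, and TGFBR1 rose with sh72 as well. TGFBR1 (ENSG00000106799.12), the kinase that phosphorylates SMAD2 and SMAD3, lies on chromosome 9 (99103647 to 99154192, plus strand). It had 123, 128 and 122 CPM with shSCR, 181, 193 and 192 with sh68, and 149, 139 and 145 with sh72. The 3 groups did not overlap, with sh72 between the controls and sh68. The rise was 1.52-fold with sh68 (log2 0.60 ± 0.041, edgeR adjusted p = 8.87e-12) and 1.16-fold with sh72 (log2 0.22 ± 0.041, edgeR adjusted p = 9.91e-05). The mean of both shRNAs was 0.41 ± 0.036 (edgeR adjusted p = 1.14e-09).

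TGFBR2 (ENSG00000163513.17), which binds the ligand, lies on chromosome 3 (30606356 to 30694142, plus strand). Its levels were 75.2, 78.3 and 73.8 CPM with shSCR, 111, 108 and 106 with sh68, and 67.5, 76.4 and 69.5 with sh72. All sh68 libraries were above the controls, and the sh72 libraries overlapped them. TGFBR2 rose 1.43-fold with sh68 (log2 0.51 ± 0.046, edgeR adjusted p = 1.5e-09), and with sh72 it had -0.09 ± 0.047 (edgeR adjusted p = 0.111). Without sh72 replicate 2 the value with sh72 was -0.13 and passed (edgeR adjusted p = 0.037). On the mean of both shRNAs it passed with 0.21 ± 0.041 (edgeR adjusted p = 0.000118).

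Of the SMADs that carry the signal, SMAD4 fell with each shRNA, SMAD3 rose with sh68, and SMAD2 differed from control by small steps in opposite directions. SMAD4 (ENSG00000141646.13), the partner shared by the receptor-activated SMADs, lies on chromosome 18 (51030213 to 51085042, plus strand). It had 96.1, 108 and 106 CPM with shSCR, 62.9, 64.9 and 68.8 with sh68, and 83.8, 78.9 and 83.4 with sh72. The groups did not overlap, and here sh68 was the lowest. SMAD4 was left at 63.4% of control with sh68 (log2 -0.66 ± 0.048, edgeR adjusted p = 4.86e-11) and at 79.3% with sh72 (log2 -0.33 ± 0.048, edgeR adjusted p = 2.98e-06). The mean of both shRNAs was -0.49 ± 0.041 (edgeR adjusted p = 4.79e-10). A protein-coding gene annotated on the same strand, AC091551.1, shares 967 exon bases with SMAD4, 7.4% of its exon length, so part of its reads is uncertain.

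SMAD3 (ENSG00000166949.15), a receptor-activated SMAD, lies on chromosome 15 (67065602 to 67195169, plus strand). Its levels were 164, 171 and 164 CPM with shSCR, 192, 199.8 and 197 with sh68, and 162, 161 and 155 with sh72. The sh68 libraries were the highest, and the sh72 libraries lay just under the controls. SMAD3 rose with sh68 (log2 0.24 ± 0.036, edgeR adjusted p = 5.4e-06) and did not pass with sh72 (-0.06 ± 0.037, edgeR adjusted p = 0.178). Its value on the mean, 0.09 ± 0.032 (edgeR adjusted p = 0.0203), did not pass without shSCR replicate 1 (adjusted p = 0.0626) or 3 (0.0585). An antisense gene, AC087482.1, shares 182 of its exon bases, 2.0% of the length.

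SMAD2 (ENSG00000175387.15), the other receptor-activated SMAD of this branch, lies on chromosome 18 (47808957 to 47930872, minus strand). It had 119, 125 and 119.9 CPM with shSCR, 125, 131 and 131 with sh68, and 113, 115 and 112 with sh72. The sh68 libraries overlapped the upper end of the controls, and the sh72 libraries lay below them by a small step. The log2 fold change was 0.09 ± 0.038 with sh68 (edgeR adjusted p = 0.0459) and -0.10 ± 0.039 with sh72 (edgeR adjusted p = 0.0394). The first call was lost in 5 of 17 alternatives (adjusted p up to 0.124): with no filter and without shSCR replicate 1 or 3 or sh68 replicate 2 or 3. The second was lost in 15 of 17 (adjusted p up to 0.263), among them the fit without any 1 of the 9 libraries. On the mean SMAD2 had -0.003 ± 0.033 (edgeR adjusted p = 0.953), a value whose sign turned with RLE scaling (0.00615) and library size alone (0.0311).

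The 3 genes that hold the pathway back, SMAD7, SKI and SKIL, each rose with sh68 and did not pass with sh72. SMAD7 blocks the receptors, and SKI and SKIL are corepressors that bind SMAD complexes on DNA. SMAD7 and SKIL are themselves well-known targets of SMADs, so a promoter window of each is shown. These windows are as RefSeq on GRCh38.p14 gives them, from 250 bases before the start of transcription to 50 after it. They are written 5′ to 3′ on the gene's strand. Capitals mark the SMAD box CAGAC or its reverse complement. The SMAD7 window is chr18:48950916-48951215 on the minus strand and the SKIL window is chr3:170357465-170357764 on the plus strand.
SMAD7: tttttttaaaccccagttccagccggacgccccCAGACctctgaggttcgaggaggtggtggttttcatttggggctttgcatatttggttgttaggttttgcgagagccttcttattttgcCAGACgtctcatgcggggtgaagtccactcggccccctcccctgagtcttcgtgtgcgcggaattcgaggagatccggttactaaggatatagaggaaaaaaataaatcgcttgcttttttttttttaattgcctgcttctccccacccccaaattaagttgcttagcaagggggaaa
SKIL: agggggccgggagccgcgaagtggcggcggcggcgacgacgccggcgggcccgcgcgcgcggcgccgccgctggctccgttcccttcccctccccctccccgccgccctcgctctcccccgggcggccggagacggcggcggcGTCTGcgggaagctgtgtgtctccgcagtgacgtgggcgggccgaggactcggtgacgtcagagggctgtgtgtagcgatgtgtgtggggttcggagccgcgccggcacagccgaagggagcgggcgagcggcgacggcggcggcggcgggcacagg

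The SMAD7 window shown holds 2 SMAD boxes and the SKIL window 1, with a GC content of 48.3% and 79.0%. The SMAD7 windows at other starts, not shown, hold 1 and 0 SMAD boxes. Windows were given for 8 of the 10 genes, 23 in all, since some genes have several starts. LRRC32 and SKI had none. Some windows of TGFBR1 overlap and hold the same SMAD box, so the 23 are not independent. The SMAD box was found in 10 of these 23 windows, beside 45.3% of all 35116 windows of the table, so its presence is common. The palindrome GTCTAGAC was in none of the 23 and in 0.2% of all windows. The GFI1 core AATCAC was in 1 of the 23, a second window of SMAD7 (10.2% of all), and the STAT and BCL6 type TTCNNNGAA in 1, a window of SMAD3 (7.7% of all). The interferon response element was in none of them (3.6% of all). All motifs were searched on both strands, no motif contains another, and a match is only a match of letters.

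SMAD7 (ENSG00000101665.9; chromosome 18, 48919853 to 48950965) was near the floor of detection. With shSCR it had 21, 11 and 12 reads, with sh68 39, 31 and 28, and with sh72 13, 15 and 12, or 0.649, 0.381 and 0.383 CPM, 1.2, 0.883 and 0.795 CPM, and 0.379, 0.474 and 0.394 CPM. Every sh68 library was above every other library, while the sh72 libraries fell among the controls. SMAD7 rose 2.0-fold with sh68 (log2 1.00 ± 0.29, edgeR adjusted p = 0.00484). With sh72 it had -0.19 ± 0.34 (edgeR adjusted p = 0.666), and on the mean 0.41 ± 0.28 (edgeR adjusted p = 0.231).

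SKI (ENSG00000157933.9; chromosome 1, 2228319 to 2310213, plus strand) had 10.1, 9.63 and 10.4 CPM with shSCR, 14.8, 13.2 and 15.1 with sh68, and 8.08, 9.86 and 8.95 with sh72. The sh68 libraries were the highest, and the sh72 libraries overlapped the lower end of the controls. It rose 1.43-fold with sh68 (log2 0.51 ± 0.083, edgeR adjusted p = 1.34e-05) and had -0.17 ± 0.089 with sh72 (edgeR adjusted p = 0.123). Its mean over both shRNAs, 0.17 ± 0.075, missed the threshold of 0.05 (edgeR adjusted p = 0.0568) and passed with RLE scaling (adjusted p = 0.0438), library size alone (0.032), the replicate number as a block (0.0465) or a minimum of 1 CPM in 3 libraries (0.0359). It also passed without sh68 replicate 2 (0.0201) or sh72 replicate 1 (0.0172) or 3 (0.0481).

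SKIL (ENSG00000136603.13; chromosome 3, 170357715 to 170396849, plus strand), also called SnoN, had 66.9, 70.1 and 68.6 CPM with shSCR, 85.0, 86.5 and 84.6 with sh68, and 62.7, 66.6 and 65.1 with sh72. The sh68 libraries stood clear above the rest, and the sh72 libraries were all below the controls by a small step. SKIL rose 1.25-fold with sh68 (log2 0.32 ± 0.042, edgeR adjusted p = 7.22e-07). With sh72 it had -0.08 ± 0.042 (edgeR adjusted p = 0.121), and on the mean 0.12 ± 0.037 (edgeR adjusted p = 0.00876).

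**Figure D2:**
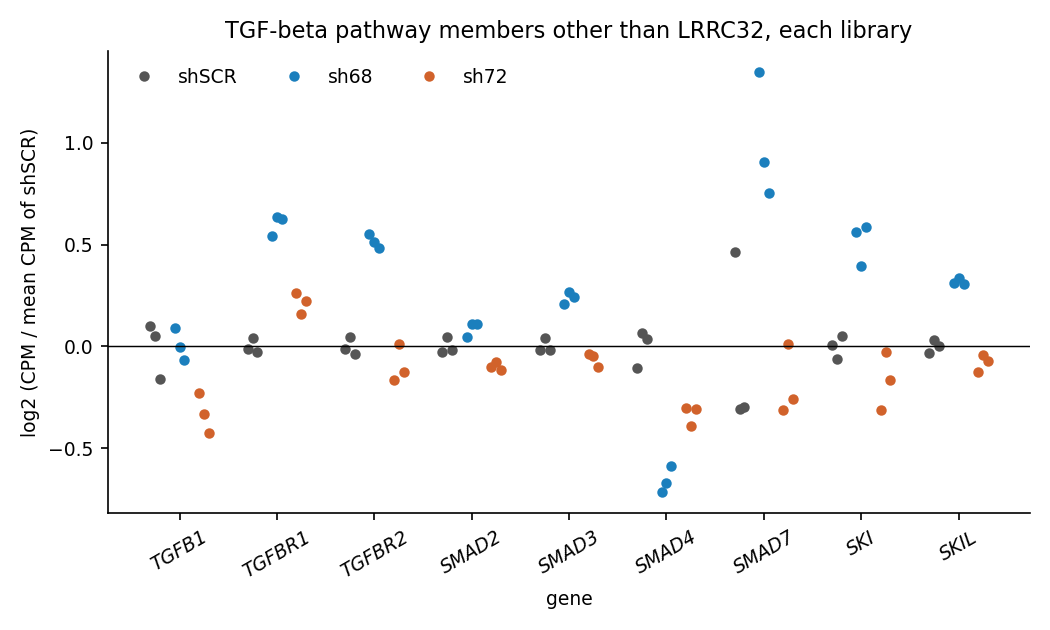
The 9 pathway genes other than LRRC32 in each library, as log2 of CPM over the mean CPM of shSCR, with 1 point per library. In sh68 (blue), TGFBR1, TGFBR2, SMAD3, SMAD7, SKI and SKIL lie above all controls and SMAD4 lies below them. In sh72 (orange) only TGFBR1 lies above all controls.

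More of these genes were called higher with sh68 than with sh72. With sh68, 7 of the 9 genes other than LRRC32 were higher, 1 was lower and 1 did not pass, in a contrast where 55.5% of all genes tested passed, 27.4% higher and 28.1% lower. With sh72, 1 was higher, 3 were lower and 5 did not pass, where 51.0% of all genes passed. On the mean of both shRNAs, 4 were higher, 2 lower and 3 did not pass, where 52.3% of all genes passed. The median log2 fold change of the 9 was 0.32 with sh68 and -0.10 with sh72, beside -0.008 and -0.011 for all genes. In CPM, 6 of the 9 lay above and 1 below every control with sh68, where 62.6% of all genes did not overlap (30.6% above, 31.9% below). With sh72, 1 lay above and 5 below, where 56.4% of all genes did not overlap (27.4% above, 29.1% below). The contrasts share the shSCR libraries, and the direct comparison of sh72 with sh68 does not use them.

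**Figure D3:**
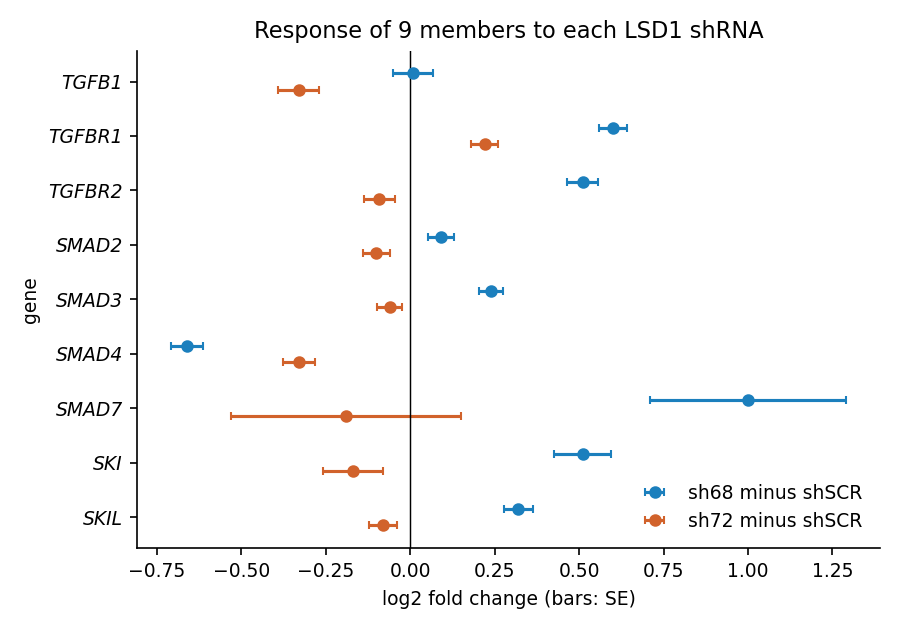
Log2 fold change ± SE against shSCR of the 9 pathway genes for sh68 (blue) and sh72 (orange). TGFBR1 is right of 0 and SMAD4 left of 0 for each shRNA, and SMAD7, with few reads, has the widest bars.

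In that direct comparison all 10 genes passed, where 56.2% of all genes did. Of these, 9 genes, LRRC32 included, were lower with sh72 than with sh68 (29.0% of all genes were lower), and SMAD4 was higher (27.2% of all genes were higher). The log2 differences of sh72 minus sh68 were -0.61 ± 0.046 for TGFBR2 (edgeR adjusted p = 7.89e-11), -0.68 ± 0.084 for SKI (edgeR adjusted p = 2.45e-07) and -1.19 ± 0.29 for SMAD7 (edgeR adjusted p = 0.00125). TGFB1, TGFBR1, SMAD2, SMAD3 and SKIL had -0.33, -0.39, -0.19, -0.30 and -0.40, and SMAD4 had 0.32 ± 0.049 (edgeR adjusted p = 4.55e-06). In CPM, each of the 10 genes separated the 3 sh72 from the 3 sh68 libraries without overlap, as did 60.7% of all genes (29.6% above and 31.1% below).

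When the 6 LSD1 shRNA libraries were set against the 3 controls, only TGFBR1 and SMAD4 among the 9 separated without overlap, TGFBR1 above and SMAD4 below, where 29.9% of all genes separated. For each of them the two-sided exact permutation p was 0.0238, the smallest that 6 libraries against 3 can give. Separation without overlap fixes that value, so it adds nothing to the separation. For the other 7 genes the exact permutation p was between 0.262 and 0.929. These p values treat the libraries of sh68 and sh72 as replicates of 1 condition and are not adjusted over the 9 genes. When those 6 libraries were fitted as a common group, so that the gap between sh68 and sh72 widens the spread, the same pair passed, and TGFB1, TGFBR2, SMAD3 and SKIL did not (edgeR adjusted p from 0.351 to 0.481).

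Levels of different genes were compared per kilobase of exon (RPKM, computed from the TMM-scaled counts and GENCODE 29 exon lengths). In shSCR the order from the highest level was TGFB1 (22.6 ± 2.1 RPKM), SMAD3 (18.3 ± 0.397), TGFBR1 (18.1 ± 0.532), TGFBR2 (16.1 ± 0.483), SKIL (8.8 ± 0.205), SMAD4 (7.88 ± 0.481), LRRC32 (7.06 ± 1.11), SMAD2 (3.34 ± 0.0978), SKI (1.65 ± 0.0661) and SMAD7 (0.0936 ± 0.0307). The ranges of SMAD3 and TGFBR1 overlapped, as did those of SMAD4 and LRRC32, and the other neighbours in the order did not. By the longest transcript in place of all exons, SMAD3 (26.6 RPKM) and TGFB1 (26.5) were nearly level, and SMAD4 (11.8) stood above SKIL (9.54). The annotated exons of SMAD2 sum to 36366 bases, which lowers its level on this scale.

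LRRC32 in control cells was thus within the range of the genes around it in the pathway, above 55.0% of the 13134 genes with a length. With sh68 its level was 1.01 ± 0.0327 RPKM, above 23.8% of genes, and with sh72 it was 0.79 ± 0.116 RPKM, above 22.7%. It moved from 7 in the order of the 10 genes to 9 with each shRNA, with SMAD7 alone lower. TGFB1, its cargo, stayed above 83.9% of genes with sh68 and 78.7% with sh72.

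The other genes of latency and activation moved in both directions. Of 14 listed genes 10 were tested, and on the mean of both shRNAs 5 rose, 3 fell and 2 did not pass (52.3% of all genes passed), with a median log2 fold change of 0.14 beside -0.015 for all genes. LTBP3, which anchors the latent complex in the matrix, had 6.4 ± 0.439 CPM in shSCR and fell to 4.66 ± 0.618 (sh68) and 4.03 ± 0.536 (sh72) (mean log2 -0.56 ± 0.10, edgeR adjusted p = 7.19e-05). The other LTBP genes are named after their values were seen. LTBP1, at a far higher level, rose from 147 ± 6.19 CPM to 215 ± 5.89 (sh68) and 178 ± 8.91 (sh72) (mean log2 0.41 ± 0.037, edgeR adjusted p = 1.76e-09). LTBP4 rose on the mean (0.13 ± 0.049, edgeR adjusted p = 0.0287) but did not pass with sh72 (0.363), and LTBP2 did not pass on the mean (0.754). ITGB8, the integrin chain that frees TGF-beta from GARP, had 3.86 ± 0.252 CPM in shSCR, 4.31 ± 0.0383 in sh68 and 7.27 ± 0.952 in sh72. It passed with sh72 (log2 0.91 ± 0.11, edgeR adjusted p = 4.11e-07) and not with sh68 (0.16 ± 0.12, edgeR adjusted p = 0.269). FURIN, the protease that cuts the propeptide, fell with sh72 (-0.84 ± 0.12, edgeR adjusted p = 1.52e-06) and had -0.07 ± 0.11 with sh68 (edgeR adjusted p = 0.592). NRROS, the closest relative of GARP in structure and role, was not tested, with at most 6 reads in a library, and was picked out after its values were seen.

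Of 35 other ligands and antagonists 14 were tested, and 3 rose, 1 fell and 10 did not pass on the mean (median 0.17), where 24.9% of all genes were higher and 27.5% lower. BMP3, a BMP family ligand, had 46.7 ± 1.64 CPM in shSCR and rose to 90.4 ± 1.72 (sh68) and 66.9 ± 5.36 (sh72) (mean log2 0.74 ± 0.046, edgeR adjusted p = 3.42e-12). AMH, the anti-Müllerian hormone, rose from 1.59 ± 0.173 CPM (0.86 ± 0.14, edgeR adjusted p = 2.31e-05), and GDF11, a ligand of activin receptors, from 6.39 ± 0.395 CPM (0.52 ± 0.092, edgeR adjusted p = 4.52e-05). Each of the 3 passed with sh68 and with sh72. The other TGF-beta isoforms were scarce: TGFB2 had 2 to 19 reads per library and was not tested, and TGFB3 averaged 1.47 ± 0.438 CPM in shSCR and did not pass on the mean (-0.14 ± 0.19, edgeR adjusted p = 0.552). These 2 isoforms were chosen after their values were seen.

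Of 17 other receptors and coreceptors 12 were tested, and 3 rose, 4 fell and 5 did not pass on the mean (median -0.10), beside the same 24.9% and 27.5% of all genes. CD109, a coreceptor that dampens TGF-beta signalling, had 0.313 ± 0.0892 CPM in shSCR and rose to 1.76 ± 0.362 (sh68) and 1.32 ± 0.0459 (sh72) (mean log2 2.27 ± 0.25, edgeR adjusted p = 6.29e-08). ACVR1, a type I receptor for BMPs, rose with each shRNA (mean 0.78 ± 0.17, edgeR adjusted p = 0.000539). TGFBR3, the coreceptor betaglycan, rose from 0.127 ± 0.0807 CPM with sh68 (1.96 ± 0.48, edgeR adjusted p = 0.00133) and had 1.15 ± 0.55 with sh72 (edgeR adjusted p = 0.0855).

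The SMADs of the BMP branch and their inhibitor form a list of 4, all tested, of which 2 rose, 1 fell and 1 did not pass on the mean (median 0.22), where 52.3% of all genes passed. SMAD1, which BMP receptors activate, had 122 ± 2.05 CPM in shSCR and rose to 199 ± 2.15 (sh68) and 190.2 ± 8.75 (sh72) (mean log2 0.68 ± 0.034, edgeR adjusted p = 8.06e-14). SMAD6, the inhibitory SMAD most like SMAD7 in role, rose with sh68 (1.37 ± 0.12, edgeR adjusted p = 1.39e-09) and fell with sh72 (-0.49 ± 0.15, edgeR adjusted p = 0.00755). SMAD5, the close relative of SMAD1, likewise had 0.13 ± 0.041 with sh68 (edgeR adjusted p = 0.0111) and -0.32 ± 0.042 with sh72 (edgeR adjusted p = 7.37e-07).

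Of 25 SMAD cofactors, corepressors and turnover factors 22 were tested, and 6 rose, 8 fell and 8 did not pass on the mean (median -0.04), where 24.9% of all genes were higher and 27.5% lower. ZEB2, a repressor that binds SMADs, had 33.4 ± 0.433 CPM in shSCR and rose to 122 ± 3.3 (sh68) and 39.3 ± 0.542 (sh72), so that its rise was far larger with sh68 (sh72 minus sh68, -1.63 ± 0.043, edgeR adjusted p = 1.86e-19). ZEB1, its paralog, did not pass with sh68 (0.06 ± 0.074, edgeR adjusted p = 0.496) and rose with sh72 (0.80 ± 0.071, edgeR adjusted p = 1.64e-09). SNX6, a sorting nexin reported to bind TGF-beta receptors, fell from 88.7 ± 1.25 CPM in shSCR to 69.9 ± 4.62 (sh68) and 44.3 ± 0.418 (sh72) (mean log2 -0.67 ± 0.04, edgeR adjusted p = 1.26e-12).

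Genes listed as induced by TGF-beta in many cells showed no common direction on the mean. Whether TGF-beta induces them in these cells was not tested. Of 26 listed genes 19 were tested, and 6 rose, 7 fell and 6 did not pass (median 0.037), where 24.9% of all genes were higher and 27.5% lower. SKIL, SMAD7 and TGFB1 are in this list too, and LTBP3 is also in the list on latency. With sh68 9 rose and 5 fell (median 0.32), where 27.4% of all genes were higher and 28.1% lower. With sh72 3 rose and 8 fell (median -0.11), where 24.7% were higher and 26.3% lower. ID2, an inhibitor of helix-loop-helix factors, had 84.4 ± 4.7 CPM in shSCR and fell to 40.4 ± 1.38 (sh68) and 48.4 ± 1.28 (sh72) (mean log2 -0.93 ± 0.041, edgeR adjusted p = 4.86e-15). ID3, in the same list and named after its values were seen, went the other way. It rose from 52.5 ± 2.36 CPM to 110.3 ± 5.2 (sh68) and 81.8 ± 12.3 (sh72) (mean 0.86 ± 0.062, edgeR adjusted p = 4.39e-11). BHLHE40, a helix-loop-helix repressor, fell from 4.33 ± 1.23 CPM to 1.06 ± 0.136 and 1.81 ± 0.609 (mean -1.65 ± 0.18, edgeR adjusted p = 4.2e-08). COL1A1, a collagen chain that also marks stroma, rose from 0.36 ± 0.0862 CPM to 1.27 ± 0.149 and 1.8 ± 0.762 (mean 2.07 ± 0.29, edgeR adjusted p = 2.29e-06). With sh72 it had 1.57, 2.65 and 1.18 CPM, and without replicate 2 of sh72 its log2 fold change with sh72 was 1.96 in place of 2.33. The other stromal markers in the table, COL1A2, DCN and LUM, averaged at most 0.244 CPM in any group. COL1A2 had 14 reads in that same replicate of sh72 and 0 in each of the other libraries, and the part of such RNA in the COL1A1 result was not tested.

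**Figure D4:**
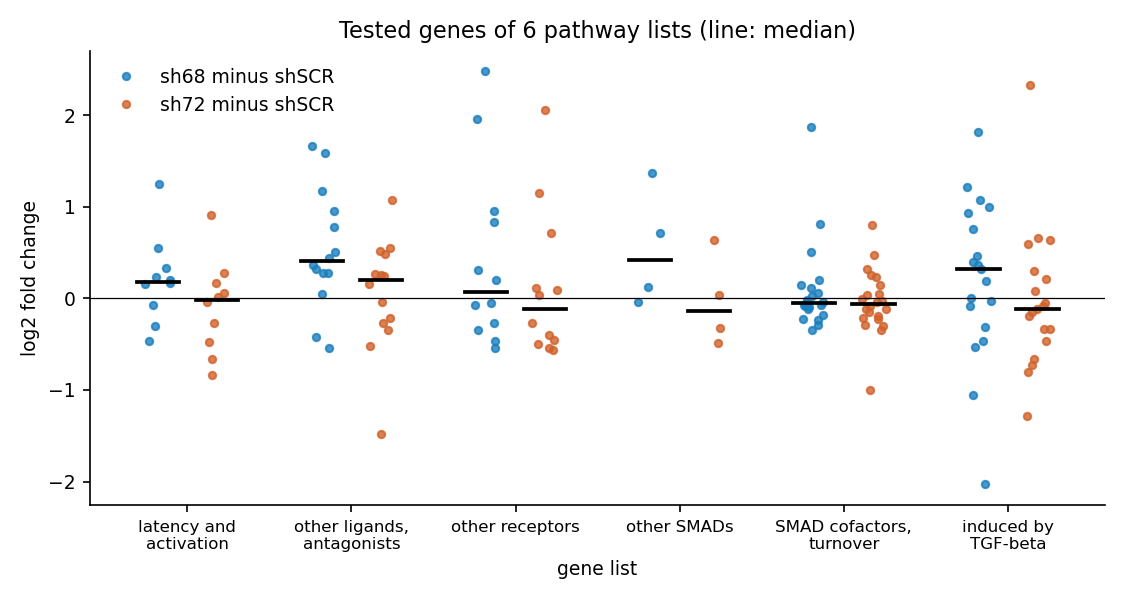
Log2 fold change against shSCR of each tested gene in the 6 pathway lists, for sh68 (blue) and sh72 (orange), with a line at each list's median. Points lie on either side of 0 in every list, and for the genes listed as induced by TGF-beta the median is 0.32 with sh68 and -0.11 with sh72.

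The tested genes around LRRC32 on chromosome 11 had smaller fold changes than LRRC32. Since LRRC32 was chosen for its fall, that choice alone favours this outcome, and nothing about the region was tested. RefSeq annotates 25 other genes within 500 kb, of which 10 are in the table and 5 were tested. CAPN5, a calpain protease gene 396.2 kb away, had 1.27 ± 0.278 CPM in shSCR and fell to 0.556 ± 0.137 (sh68) and 0.432 ± 0.205 (sh72) (mean log2 -1.38 ± 0.25, edgeR adjusted p = 7.28e-05). THAP12 (-0.25 ± 0.051, edgeR adjusted p = 0.000209) and EMSY (-0.24 ± 0.036, edgeR adjusted p = 6.17e-06), on the other side, fell with each shRNA. ACER3, an alkaline ceramidase gene, passed on the mean (-0.26 ± 0.058, edgeR adjusted p = 0.000547) and with sh72 but not with sh68 (-0.009 ± 0.065, edgeR adjusted p = 0.919). TSKU, the remaining tested neighbour, named after its values were seen, had 0.372 ± 0.148 CPM in shSCR and did not pass (0.33 ± 0.34, edgeR adjusted p = 0.43). Of all genes tested 27.5% were lower on the mean.

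**Figure D5:**
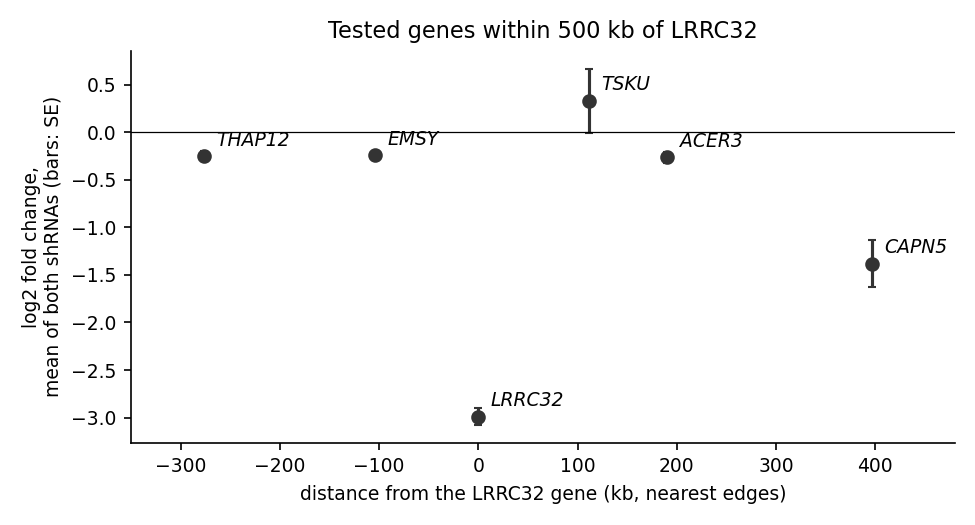
Log2 fold change ± SE on the mean of both shRNAs for LRRC32 and the 5 tested genes within 500 kb, by distance in kb between the nearest edges of the genes. LRRC32 is at -2.99, CAPN5 at -1.38, and THAP12, EMSY and ACER3 are between -0.26 and -0.24.

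By Pearson correlation of log2 CPM over the 9 libraries, the genes most like LRRC32 among 10968 compared were LINC00641 (r = 0.9947), KDM7A (0.9944), LGALS9 (0.9934), KDM1A (0.9934) and PTPN6 (0.9933). In all, 187 genes exceeded 0.95. These libraries fall into control and LSD1 shRNA groups, so that a gene low to a like degree with each shRNA tends to score high. The values are a description. KDM7A is a histone demethylase of another family, LGALS9 encodes galectin-9, and PTPN6 encodes the phosphatase SHP-1. LGALS9 stood at 55.1 ± 4.36 CPM (shSCR), 16.1 ± 1.46 (sh68) and 14.7 ± 0.166 (sh72), and PTPN6 had 74.6 ± 2.22, 24.1 ± 1.47 and 20.9 ± 0.458. KDM7A was left at 56.6% and 53.1% of control and LINC00641, a long noncoding RNA, at 67.1% and 64.6%. None of these reached the 14.2% and 11.2% of LRRC32. Among the pathway genes the highest r to LRRC32 was that of SMAD4 (0.782) and the lowest that of TGFBR1 (-0.693), with SMAD7 not compared because of its low level.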

How the data were processed

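Polyadenylated RNA of OCI-Ly1 cells was counted in 9 libraries. The authors deposited raw counts of reads for each gene symbol in each library. Per the submitters' processing notes, the build was hg38 and the tools included featureCounts 1.5.2, STAR 2.5.2 and CASAVA 1.8.2. How strand was set and which annotation was used is not given in the sources used here. No label says which numbered sample is sh68 and which sh72, so the column names were used.

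Genes were kept by filterByExpr and scaled by TMM, and 1 quasi-likelihood model with a term per shRNA was fitted to all libraries with edgeR 4.0.16 in R 4.3.3 (limma 3.58.1, DESeq2 1.42.0 as alternatives). P values were adjusted over the 15725 genes tested (Benjamini-Hochberg), with a threshold of 0.05. SE is that of the log2 fold change, derived as its absolute value divided by the square root of the F statistic of its test. Tested on simulated counts for sh68 against shSCR (15476 genes), the fit recovered 76% of 1.25-fold and 98% of 2-fold changes. With 50 genes changed at each fold, it made 11 false calls. The changed genes all averaged above 1 CPM, and far fewer changed than passed in the data. These rates may therefore not hold for the data, and they do not cover a gene as low as SMAD7. Positions are from RefSeq (GRCh38.p14) and exon lengths from GENCODE 29.

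Named by rule were the 10 members, KDM1A and up to 3 passing genes per list with the largest change on the mean. The rule also took passing neighbours of LRRC32 and the 5 genes most correlated with it. TSKU, NRROS, TGFB2 and TGFB3, among others, were named outside this rule after their values were seen. Members and lists were chosen with earlier results of these data known. CPM use TMM-scaled library sizes. Libraries held 29506767 to 35270849 reads.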

Additional observations from a re-analysis of the deposited data

Results flagged for a closer look

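In 9 genes of the pathway and its lists the shRNAs moved RNA in opposite directions, each passing against shSCR, and the difference of sh72 minus sh68 passed as well by edgeR's adjusted p. These were 9 of 86 such genes tested (10.5%), and 7.83% of all 15725 genes tested met the same conditions, of which 55.2% were higher with sh68. Apart from SMAD2, SMAD5 and SMAD6, which the naming rule or the choice of members took, these genes are named because of their values. The summed level of B-cell markers was also lower in sh72 than in the other groups (2690.0 to 2867.6 CPM against 4236.1 to 4391.4), and its part in these differences was not tested.

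The largest differences were in SMAD6 (log2 fold change 1.37 with sh68 and -0.49 with sh72, difference -1.86, adjusted p = 1.29e-11) and in the integrin chain ITGB3 (1.25 and -0.48, difference -1.73, adjusted p = 9.6e-11). BMP7, a ligand of BMP receptors, had 0.28 and -0.52 (difference -0.80, adjusted p = 2.72e-13), and the type II receptor ACVR2B 0.31 and -0.50 (difference -0.80, adjusted p = 7.48e-10). CDKN1A, which encodes p21, had 0.40 and -0.33 (difference -0.74, adjusted p = 1.15e-12), and the cell death gene BCL2L11 0.19 and -0.47 (difference -0.66, adjusted p = 2.94e-13). Smaller differences were found in SMAD5 (0.13 and -0.32, difference -0.45, adjusted p = 2.37e-09), in the acetyltransferase CREBBP (0.15 and -0.21, difference -0.36, adjusted p = 4.31e-08) and in SMAD2 (0.09 and -0.10, difference -0.19, adjusted p = 0.000191). For SMAD2 the call with sh68 was lost in 5 of 17 alternatives and that with sh72 in 15 of 17. In each of these 9 genes the value was higher with sh68 and lower with sh72.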

How the results depend on the processing

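Of 625 tested values of the 10 genes under all alternatives, 565 kept their direction and their side of the threshold, 37 lost the call, 8 gained it and 15 changed sign. The changes of sign were in SMAD2 on the mean, TGFB1 with sh68 and SMAD7 with sh72. Their main values were smaller than their SE (-0.003 ± 0.033, 0.009 ± 0.059 and -0.19 ± 0.34). SMAD2 on the mean of both shRNAs became 0.00615 with RLE scaling, 0.0311 with library size alone, 0.000251 with no filter, 0.0169 with a minimum of 1 CPM in 3 libraries, 0.00623 with DESeq2 and 0.000147 with the 6 LSD1 shRNA libraries as 1 group. Leaving out 1 library, it ran from -0.00728 to 0.0305, TGFB1 with sh68 from -0.0601 to 0.0698, and SMAD7 with sh72 from -0.318 to 0.133. The cause was not tested.

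With the 6 libraries as 1 group 3581 genes passed in place of 8226, and 2 members in place of 6. In that fit the list counts that moved, with the main count in brackets, were 2 (5) higher genes for latency, 0 (1) lower ligands and 2 (4) lower receptors. Other SMADs had 1 (2) higher and 0 (1) lower, and cofactors 1 (6) higher and 4 (8) lower. Genes listed as induced by TGF-beta had 3 (6) higher and 4 (7) lower. Under all alternatives lower latency genes ran from 2 to 3, higher ligands from 2 to 4 and higher receptors from 2 to 3. The count of lower other SMADs was also 0 with library size alone, a minimum of 1 CPM or DESeq2, and that of lower ligands was 0 with library size alone. Leaving out 1 library, the counts of lower ligands and lower other SMADs ran from 0 to 1, and that of members called on the mean from 4 to 7.

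Residuals of libraries with the same replicate number had Pearson r from 0.127 to 0.15 between shSCR and sh68. For shSCR with sh72 r ran from -0.043 to 0.283, and for sh68 with sh72 from -0.095 to 0.147. With unlike numbers r ran from -0.132 to -0.02, -0.281 to 0.119 and -0.104 to 0.136 in the same order. Like and unlike pairs are not independent, since residuals are taken from the mean of each group. The numbers may pair shSCR with sh68, and no label says so. With the replicate block 9173 genes and 8 members passed with sh68, in place of 8727 and 8. With that block 8631 genes and 7 members passed on the mean, SKI being added (adjusted p = 0.0465), and no other call of a member changed. The fit of only the groups compared gives no mean of both shRNAs, and SMAD7 failed the minimum of 1 CPM. Scaling moved the median of all genes by at most 0.039. SMAD7, with 11 to 39 reads per library, has the least precise values of the 10 genes.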
